A study of Mus musculus with 6 samples.

Results

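Guanine nucleotides are made from inosine monophosphate (IMP), the branch point of purine synthesis. IMP dehydrogenase, encoded by Impdh1 and Impdh2, oxidises IMP to xanthosine monophosphate, GMP synthetase (Gmps) aminates it to GMP, and guanylate kinase (Guk1) phosphorylates GMP to GDP. Cells also recover guanine through hypoxanthine-guanine phosphoribosyltransferase (Hprt), lose it through guanine deaminase (Gda), turn GMP back to IMP through the GMP reductases (Gmpr, Gmpr2) and take up nucleosides through the equilibrative transporters Slc29a1 and Slc29a2. Mycophenolate mofetil (MMF) is a prodrug of mycophenolic acid, an inhibitor of IMP dehydrogenase. The chromatin at these 10 genes was described in MLL-AF9-driven murine leukemia stem cells (LSCs) kept with or without MMF.

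The data were 6 ATAC-seq peak lists, 3 from control LSCs and 3 from LSCs given MMF, for 24 h by the labels. ATAC-seq marks open chromatin by where the Tn5 transposase inserts adapters, and each list had been called on its own sample. Both groups were labelled as L-GMP cells (leukemic granulocyte-macrophage progenitors) of the cell type AML LSCs, genotype WT and tissue Blood. They came from leukemias driven by the MLL-AF9 fusion, were grown with mouse IL3 and were sorted before tagmentation, so the lists describe cultured cells of 1 leukemia model. The text of the study is not uniform on the time and dose of MMF in this experiment, so neither is settled here. No label gives a dose, and none says whether samples of a group came from separate cultures or mice, so p-values measure the spread between these samples, which may be technical. A member was any peak that touched one of the 10 genes or the 10 kb on either side of it (GENCODE M21 on mm10). Peaks of the 6 lists were merged into regions, and 66 of the 112852 regions of the genome fell in these windows.

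Lists held 58496 to 63911 peaks in control samples and 80893 to 86556 in MMF samples. The fold enrichment of a peak is the number of reads over its summit plus 1, divided by the expected local background plus 1, and the summit reads could be solved from it and the deposited p. The background expected from sequencing depth alone was 0.620 to 0.729 reads in control and 0.676 to 0.909 in MMF samples. The weakest peaks of a list rested on 4 or 5 reads, and the median on 14 to 19. Of the promoters of 10 myeloid progenitor and leukemia genes, 7 to 8 had a peak in each list, among them Kit, Cebpa, Spi1, Hoxa9 and Meis1 in all 6, while Mpo and Prtn3 had none. Mature granulocyte and monocyte promoters with a peak numbered 8 of 10 in every control list and 9 or 10 in the MMF lists, whereas of 7 T and B cell genes only Ebf1 had one. Of 5 erythroid promoters 1 to 3 had a peak in each list, with Klf1 in all 6. Of 5 genes not of blood only Col1a1 had one, in all 6 lists. The MMF lists were also longer. Of the mature promoters 6 had a peak in all 6 lists, and the rank test described below called 0 higher and 0 lower. The difference in mature myeloid promoters with a peak moved with the treatment and list length in the same samples as the results below. Its part in them was not tested.

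The 7 regions on which most results turn are shown as the 200 bases of the GRCm38 plus strand centred on the summit, read from the RefSeq genome sequence. Capitals mark matches on either strand to the motifs searched, which were the MYC E-box CACGTG, the SP/KLF GC box GGGCGG, ETS CCGGAAG, PU.1 GAGGAAGT, C/EBP TTGCNNAA, NF-Y CCAAT, NRF1 GCATGCGC and CTCF. The first 3 are starts of genes of the pathway with a CpG-rich sequence, the next 3 are the regions in which MMF samples had the most reads relative to control, and the last had a peak only in MMF lists.
Impdh1 outer start (chr6:29216262-29216461): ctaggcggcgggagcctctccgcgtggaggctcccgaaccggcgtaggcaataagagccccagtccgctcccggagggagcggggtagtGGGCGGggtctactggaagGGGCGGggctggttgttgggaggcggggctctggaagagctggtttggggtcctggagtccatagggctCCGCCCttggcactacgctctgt
Impdh2 start (chr9:108560316-108560515): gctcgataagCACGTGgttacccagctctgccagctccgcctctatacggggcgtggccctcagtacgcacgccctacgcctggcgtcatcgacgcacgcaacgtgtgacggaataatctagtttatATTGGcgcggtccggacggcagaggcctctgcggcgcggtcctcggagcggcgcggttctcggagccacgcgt
Gmpr start (chr13:45507287-45507486): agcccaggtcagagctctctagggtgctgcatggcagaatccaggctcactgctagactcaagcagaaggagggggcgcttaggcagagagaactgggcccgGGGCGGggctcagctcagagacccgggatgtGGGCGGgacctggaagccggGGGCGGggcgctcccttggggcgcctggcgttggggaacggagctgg
Gda inner start (chr19:21440906-21441105): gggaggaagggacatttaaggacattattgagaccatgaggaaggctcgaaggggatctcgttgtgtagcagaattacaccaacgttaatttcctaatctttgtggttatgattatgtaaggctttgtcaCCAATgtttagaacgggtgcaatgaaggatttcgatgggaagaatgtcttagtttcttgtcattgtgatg
Gda intron (chr19:21461349-21461548): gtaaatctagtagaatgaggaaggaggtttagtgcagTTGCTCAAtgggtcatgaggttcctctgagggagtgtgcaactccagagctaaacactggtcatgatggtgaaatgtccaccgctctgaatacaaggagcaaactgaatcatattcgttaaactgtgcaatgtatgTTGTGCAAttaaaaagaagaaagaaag
Slc29a1 upstream region (chr17:45608500-45608699): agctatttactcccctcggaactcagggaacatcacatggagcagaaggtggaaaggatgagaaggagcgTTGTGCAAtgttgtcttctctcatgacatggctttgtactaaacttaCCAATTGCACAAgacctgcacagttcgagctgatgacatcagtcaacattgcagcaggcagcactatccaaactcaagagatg
Gda downstream region (chr19:21383931-21384130): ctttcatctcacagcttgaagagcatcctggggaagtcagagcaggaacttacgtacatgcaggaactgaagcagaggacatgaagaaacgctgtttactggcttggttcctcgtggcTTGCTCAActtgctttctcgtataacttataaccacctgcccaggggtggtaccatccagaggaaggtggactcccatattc
The upstream region of Slc29a1 holds a CCAAT whose last base is also the first of a C/EBP match, so that 2 of its motif matches overlap.

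All 10 genes had open chromatin at an annotated start in every list. Of the 66 regions, 31 had a peak in all 6 lists, 12 of them within 1 kb of a start of the gene itself, 7 at a start of a neighbouring gene and 12 at no annotated start. Control lists had 46, 41 and 39 peaks in the windows and MMF lists had 55, 59 and 49. Every MMF list thus had more peaks there than any control list, with 42.0 ± 3.61 (SD, n = 3) in control and 54.3 ± 5.03 (SD, n = 3) with MMF (two-sided exact permutation p = 0.1, the lowest possible with 3 samples a group). As a percentage of the list, the windows took 0.0682 ± 0.0033 (SD, n = 3) in control and 0.0642 ± 0.0040 (SD, n = 3) with MMF, with overlapping samples (two-sided exact permutation p = 0.3). With every list limited to its 58496 peaks of lowest p, the difference in peaks turned to -0.33 per list (two-sided exact permutation p = 1.0). The larger number of peaks in the windows went with longer lists.

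Because list lengths differed, the regions common to the 6 lists were compared by the percentile rank of their fold enrichment among the 41182 such regions of the genome, where 100 is the strongest. Ranks were tested as normal scores with limma, with p adjusted by Benjamini-Hochberg over all 41182. None of the 31 regions was called higher or lower at an adjusted p of 0.05, beside 1.44% of all regions called higher and 0.425% called lower. At an unadjusted p under 0.05 limma gave 6 of the 31, all lower with MMF. The share over all regions was 23.2%, a figure that pools higher and lower regions. Its split by direction was not counted, so whether the direction of the 6 differs from that of all regions was not tested. Among the best-ranked starts of the 10 genes limma gave 2 lower and 0 higher at this unadjusted p. Over 11691 protein-coding genes 16.8% were lower and 1.38% higher. A p above the threshold does not show that the groups were alike. MMF samples lay wholly above control samples in 2 regions (12.9% of all regions) and wholly below in 7 (16.2% of all regions). This count turned with the scale: by fold enrichment itself the MMF samples lay wholly above in 4 (27.2% of all regions) and wholly below in 0 (3.97%), and with reads over the summit in units of the sample's background they lay wholly above in 5 (29.1%) and wholly below in 4 (7.68%). With those reads centred on sample medians, a step added after seeing the data, 2 lay above and 15 below. The share of all regions without overlap was not counted on that scale. On it 64.0% of all regions had a lower mean with MMF. The smallest adjusted p were 0.0867 at the start of Gmpr and 0.0909 at a region 13.2 kb downstream of the nearest Slc29a1 start.

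Start regions as a class lay lower in the ranks with MMF. Over all promoter regions of the genome the median difference, MMF minus control, was -6.48 percentile points, and over all other regions it was 1.13. MMF samples lay wholly below control in 29.2% and wholly above in 2.79% of all promoter regions, and in 11.1% and 16.9% of the other regions. The best-ranked start of each of the 10 genes gave 7 lower and 3 higher mean ranks with a median of -8.23 percentile points. Gda was counted among the higher by its inner start, at 13.4 percentile points, while its outer start differed by -18.1. Over 11691 protein-coding genes 81.0% were lower, with a median of -6.42. The genes of guanine metabolism were thus close to promoters in general. The direction turned with the scale: in log2 fold enrichment itself 6 of the 10 were higher and 4 lower with a median of 0.02, beside a median of 0.01 over the 11691 genes and of 0.16 over all 41182 regions. The bar chart of rank differences shows the starts, the neighbouring starts and the other regions beside these 2 medians.

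**Figure D1:**
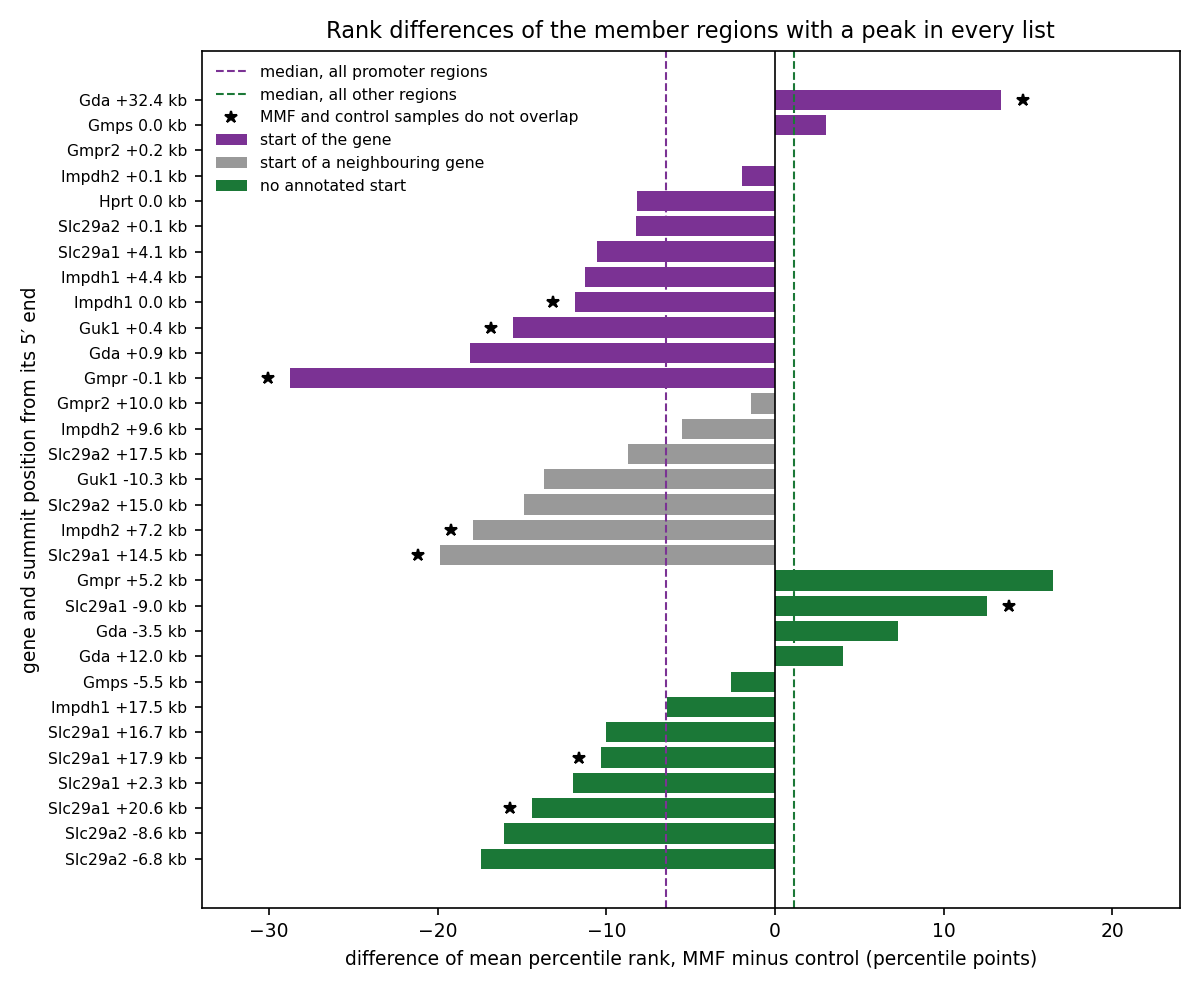
Difference of mean percentile rank, MMF minus control (percentile points, horizontal axis), for the 31 regions with a peak in all 6 lists, each named by its gene and the position of its summit from the 5′ end of the gene along its strand. Purple bars are starts of the gene, grey bars starts of neighbouring genes, green bars regions with no annotated start, dashed lines the medians of all promoter and all other regions, and stars mark regions where the samples of the groups do not overlap, 2 higher and 7 lower with MMF.

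Impdh2, the isoform of IMP dehydrogenase that proliferating cells induce, had the second strongest start region of the group. Fold enrichment there was 20.3, 17.4 and 17.8 in control and 18.5, 19.9 and 17.0 with MMF. The groups overlapped and had the same mean, 18.5 ± 1.58 (SD, n = 3) in control and 18.5 ± 1.46 (SD, n = 3) with MMF. On the scale of reads per background described below, the start of Impdh2 had 137, 99.8 and 119 in control and 99.0, 108 and 96.1 with MMF, a ratio of means of 0.850 with overlapping samples (limma adjusted p = 0.417). Centred on median ratios the difference was -0.40 ± 0.17 (log2, SE, limma adjusted p = 0.142), and it was called lower only with centring on sample medians (-0.58 ± 0.17, log2, SE, limma adjusted p = 0.0429). Its percentile rank was 97.8, 92.9 and 95.1 in control and 91.9, 96.4 and 91.6 with MMF, a difference of -1.97 percentile points (limma adjusted p = 0.673). The region (chr9:108560141-108560755) had its summit 130 bp inside the gene, in an untranslated exon, and its printed sequence holds 1 E-box and 1 CCAAT match. The nearest promoter pattern among 11690 protein-coding genes, by the Euclidean distance of the normal scores in the 6 samples, was that of the region shared by Lias and Rpl9 (0.205), followed by Orc2 (0.283).

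Downstream of Impdh2 the window holds the starts of Ndufaf3 and Dalrd3. The region at the start of Ndufaf3, which encodes an assembly factor of respiratory complex I, lies 7.2 kb from the start of Impdh2. It had percentile ranks of 40.8, 47.7 and 48.1 in control and 25.1, 32.4 and 25.4 with MMF. All MMF samples were below all control samples, with a difference of -17.9 percentile points that was not called (limma adjusted p = 0.202). The same region holds the start of the microRNA gene Mir191.

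Impdh1, the isoform with several alternative starts, had 2 weak start regions. At the outer start (chr6:29215785-29216507) fold enrichment was 6.83, 6.03 and 5.98 in control and 4.98, 7.03 and 6.33 with MMF. By rank it stood at 28.3, 21.3 and 21.9 in control and at 3.08, 17.7 and 15.2 with MMF, so all MMF ranks were below all control ranks (limma adjusted p = 0.273). The fold enrichments themselves overlapped. At the inner start, 4.1 kb into the gene, fold enrichment was 6.76, 8.32 and 7.97 in control and 9.71, 7.61 and 7.12 with MMF, which overlapped. The difference at the inner start was -11.3 percentile points in rank (limma adjusted p = 0.458) and 0.08 on the log2 scale of fold enrichment. By mean rank the inner start stood above the outer, though in control sample 1 the order was reversed (27.8 against 28.3). The inner start was nearest in pattern to the promoter of Ccdc85b (distance 0.167), then Akain1 (0.398) and Cysrt1 (0.416). Impdh1 also had a region in all 6 lists 13.4 kb downstream of its nearest start, with a CTCF match and fold enrichments that ran from 7.77 to 13.2 in the MMF samples alone (limma adjusted p = 0.784).

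Gmps and Guk1, which carry the product of IMP dehydrogenase on to GDP, had strong single starts. Gmps had a fold enrichment of 18.7, 15.9 and 14.1 in control and 18.0, 19.3 and 16.9 with MMF. The groups overlapped, and the difference was 3.0 percentile points in rank (limma adjusted p = 0.769) and 0.16 on the log2 scale of fold enrichment. It was -0.14 on the log2 scale of summit reads centred on median ratios, described below. A region 5.5 kb upstream of Gmps rested on 7 to 21 summit reads and overlapped between the groups (limma adjusted p = 0.850). At the start of Guk1, ranks of 76.9, 87.2 and 86.3 in control stood against 73.4, 67.2 and 63.2 with MMF. The MMF samples were all below, with a difference of -15.5 percentile points that was not called (limma adjusted p = 0.203). On the scale of summit reads per unit of that sample's background, Guk1 had 71.3, 79.5 and 74.2 in control and 62.7, 58.1 and 59.1 with MMF, again without overlap. The largest rank difference of the Guk1 window away from that start was at the start of Mrpl55, a mitochondrial ribosomal protein gene (chr11:59201597-59202935). Ranks there were 84.2, 65.8 and 76.8 in control and 55.9, 72.1 and 57.7 with MMF, which overlapped (limma adjusted p = 0.350).

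Ordered by mean fold enrichment in control samples, the 12 start regions ran from Gmpr2 (22.7) through Impdh2 (18.5), Gmps (16.2), Slc29a2 (15.4), Guk1 (14.5), the inner start of Gda (12.0), Hprt (11), the outer start of Gda (10.7), Gmpr (8.52), the inner start of Impdh1 (7.68) and Slc29a1 (6.62) to the outer start of Impdh1 (6.28). Samples of neighbours in this order overlapped, except between Gmpr2 and Impdh2 and between Guk1 and the inner start of Gda. These are heights of peaks over their local background and not levels of transcript. The plot of fold enrichment at the starts shows the same values by sample.

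**Figure D2:**
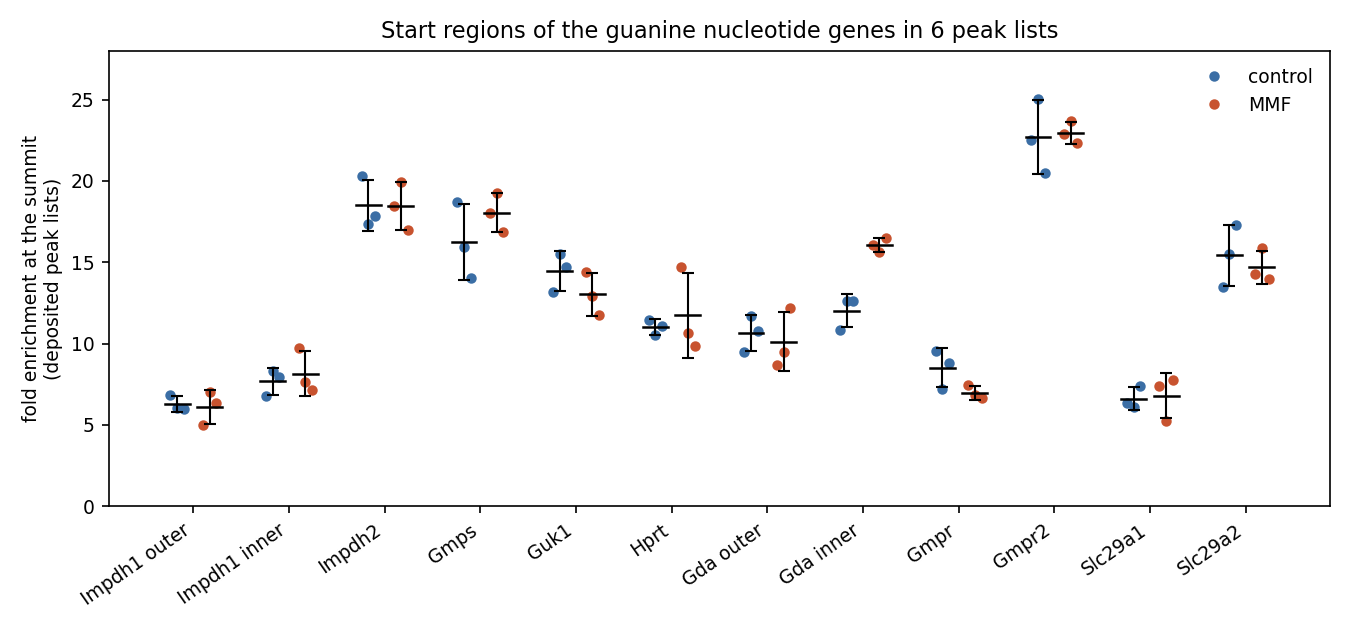
Fold enrichment at the summit (vertical axis, ratio from the deposited lists, starting at 0) of the 12 start regions of the 10 genes in 3 control (blue) and 3 MMF (orange) samples. Points are samples, black lines are means and error bars SDs, and the inner start of Gda is the only start at which all MMF samples lie above all control samples.

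Hprt, the salvage enzyme that joins guanine or hypoxanthine to phosphoribosyl pyrophosphate, had 1 region in all 6 lists, at its start. Fold enrichment was 11.5, 10.5 and 11.1 in control and 14.7, 10.7 and 9.85 with MMF. MMF sample 1 was the highest and MMF sample 3 the lowest, and the difference was -8.19 percentile points in rank (limma adjusted p = 0.668) and 0.07 on the log2 scale of fold enrichment. The other 7 regions of the Hprt window had a peak in 1 to 5 lists and included 3 in introns with a peak in all 3 lists of one group.

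Gda, which deaminates guanine to xanthine and so removes it from salvage, had the largest ratio of MMF to control summit reads among the 31 regions. It has an outer promoter and an inner start 32.6 kb into the gene. At the inner start (chr19:21440646-21441440) fold enrichment was 10.8, 12.6 and 12.6 in control and 16.0, 15.7 and 16.5 with MMF. All 3 MMF values exceeded all 3 control values, at 12.0 ± 1.04 (SD, n = 3) against 16.1 ± 0.416 (SD, n = 3). The percentile ranks, 63.6, 74.6 and 77.2 in control and 82.4, 83.3 and 89.8 with MMF, did not overlap either, and limma did not call the difference of 13.4 percentile points (adjusted p = 0.244). The summit held 36, 40 and 38 reads in control and 92, 71 and 81 with MMF.

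Summit reads per background, the reads over the summit in units of the sample's genome-wide background, correct for sequencing depth without ranking. At the inner start of Gda they were 49.4, 57.9 and 61.3 in control and 101, 101 and 119.7 with MMF, a ratio of means of 1.91. Limma on the log2 of this measure called the inner start of Gda higher, at 0.93 ± 0.17 (log2, SE, adjusted p = 0.0055). This measure called 3 of the 31 regions higher and 0 lower, where 18.6% of all regions were called higher and 0.969% lower, and the median of all regions was itself shifted by 0.17 on the log2 scale. With samples centred on the median ratio over the genome, a step chosen after the data had been seen, the inner start of Gda stayed higher at 0.76 ± 0.17 (log2, SE, limma adjusted p = 0.0209). After this centring 9.99% of all regions were called higher and 2.81% lower, and among the 31 regions only Gda at its inner start was higher and only Gmpr at its start was lower.

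The strongest region of the Gda window lies in an intron 12.0 kb from the 5′ end of the gene (chr19:21461216-21461916) and holds 2 C/EBP matches. Its summit reads per background were 81.0, 63.6 and 74.2 in control and 124, 108 and 140.4 with MMF. The groups did not overlap on this scale (log2 difference 0.77 ± 0.18, SE, limma adjusted p = 0.0151), and after centring the region was not called (log2 difference 0.59 ± 0.18, SE, limma adjusted p = 0.0617). Its ranks, already between 87.4 and 99.0 in every sample, overlapped (limma adjusted p = 0.376). A region 3.5 kb upstream of the outer promoter had 53.5, 44.8 and 62.9 summit reads per background in control and 79.2, 77.9 and 75.4 with MMF. These too did not overlap, but were not called (log2 difference 0.54 ± 0.18, SE, limma adjusted p = 0.0561). By contrast, the outer promoter itself had a fold enrichment of 9.50, 11.7 and 10.8 in control and 8.71, 9.47 and 12.2 with MMF, with MMF sample 3 the highest and MMF sample 1 the lowest (limma adjusted p = 0.355). Whether the inner start and the outer promoter differed in their response was not tested.

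**Figure D3:**
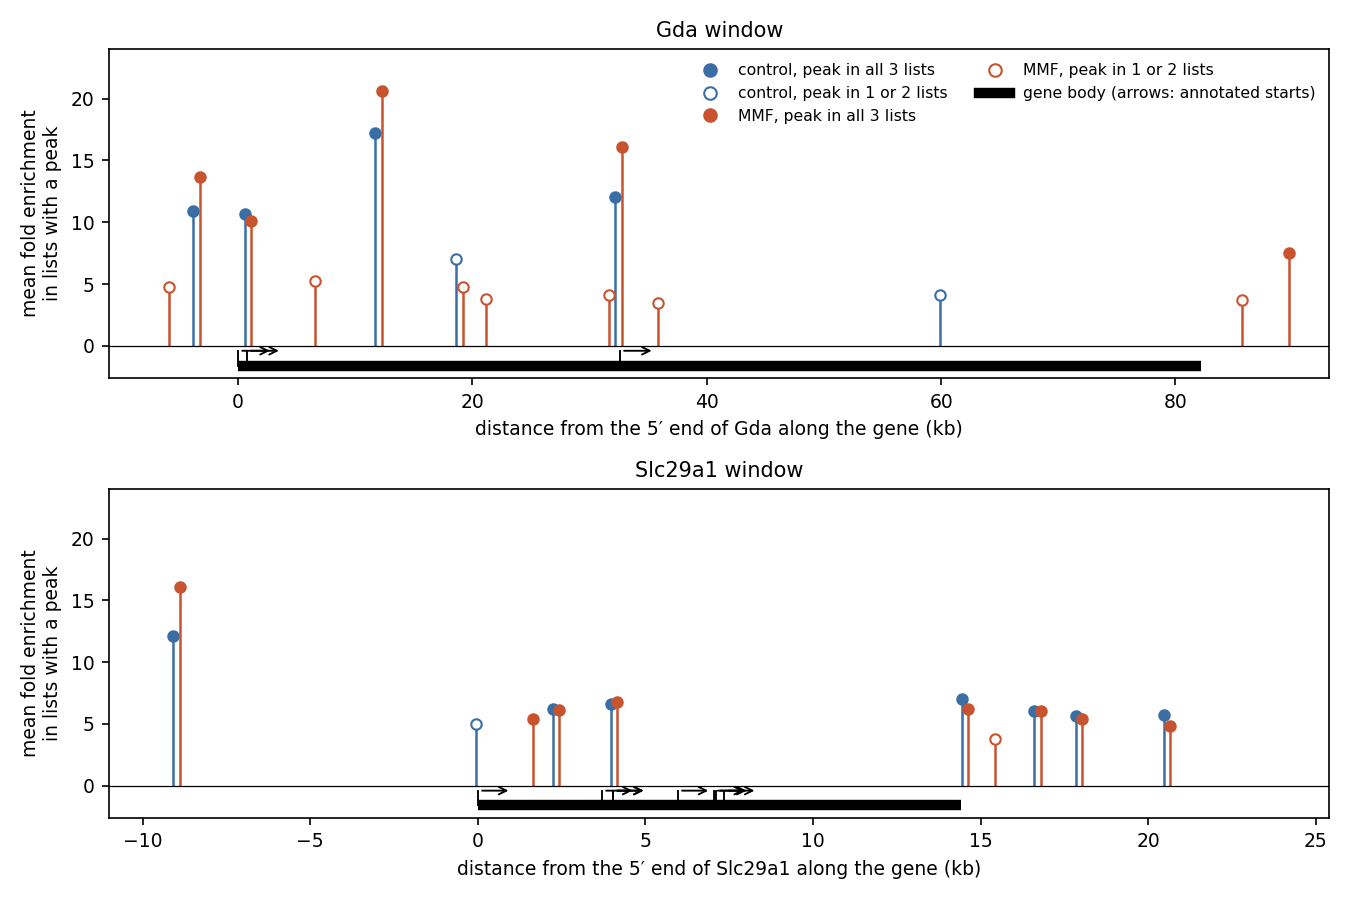
Regions of the Gda window (top) and the Slc29a1 window (bottom) by distance from the 5′ end of the gene along its strand (kb) and by mean fold enrichment over the lists with a peak (ratio), in control (blue) and MMF (orange). Filled points have a peak in all 3 lists of the group and open points in 1 or 2, the black bar is the gene body and arrows are annotated starts, and the region at the far right of Gda and one intronic region of Slc29a1 have filled orange points and no blue.

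The GMP reductases, which return GMP to the IMP pool, differed from each other in the height of their starts. At the start of Gmpr (chr13:45507258-45508059) fold enrichment was 9.55, 7.22 and 8.78 in control and 7.47, 6.86 and 6.64 with MMF, and percentile ranks were 54.2, 34.2 and 51.8 in control and 18.9, 16.6 and 18.4 with MMF. Ranks did not overlap and fell by 28.8 percentile points, the largest difference among the 31 regions (limma adjusted p = 0.0867). Summit reads per background were 27.4, 21.7 and 27.4 in control and 18.7, 19.8 and 19.2 with MMF, and this difference was called only after centring (log2 difference -0.58 ± 0.17, SE, limma adjusted p = 0.0486). The summits held 13 to 20 reads. The printed sequence of this start holds 3 GC boxes.

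An intronic region 5.2 kb into Gmpr went the other way. Its fold enrichment was 5.79, 6.88 and 4.53 in control and 10.8, 7.98 and 7.89 with MMF, on 7 to 23 summit reads. All MMF samples were higher, while the ranks overlapped and limma did not call them (adjusted p = 0.284). The sequence at its summit has 2 PU.1 matches. Gmpr2 shares its start region with Nedd8, which encodes a ubiquitin-like protein, so the reads of the pair cannot be told apart. It was the strongest of the 12 starts, at 22.5, 25.1 and 20.5 in control and 22.9, 23.7 and 22.3 with MMF, and its ranks lay between 98.4 and 99.4 in all 6 samples (limma adjusted p = 0.975). By summit reads per background it had 144, 166 and 142 in control and 131, 140.2 and 135 with MMF, which did not overlap (log2 difference -0.15 ± 0.16, SE, limma adjusted p = 0.551). The only other region of the Gmpr2 window in all 6 lists, at the start of the telomere protein gene Tinf2 (chr14:55681357-55682178), had ranks of 93.1, 97.2 and 90.3 in control and 94.8, 90.6 and 90.8 with MMF, which overlapped (limma adjusted p = 0.761).

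The transporters Slc29a1 (ENT1) and Slc29a2 (ENT2) move nucleosides across the plasma membrane. At the main start of Slc29a1, 4.1 kb into the annotated gene, fold enrichment was 6.34, 6.10 and 7.42 in control and 7.39, 5.21 and 7.79 with MMF, and the groups overlapped (-10.6 percentile points in rank, limma adjusted p = 0.428, and 0.02 in log2 fold enrichment). The 5′-most annotated start had a peak in only 1 list, control sample 3. A region 9.0 kb upstream (chr17:45608447-45608755) had a fold enrichment of 12.6, 11.8 and 11.8 in control and 16.8, 17.3 and 14.2 with MMF. All MMF samples were above all control samples there, in fold enrichment and in rank, at 72.4 ± 1.97 (SD, n = 3) against 84.9 ± 5.51 percentile (SD, n = 3, limma adjusted p = 0.242). On summit reads per background it was called higher (log2 difference 0.62 ± 0.17, SE, limma adjusted p = 0.0319) and after centring it was not (log2 difference 0.44 ± 0.17, SE, limma adjusted p = 0.103). The nearest coding start to this region is that of Mymx at 6.5 kb, and its sequence holds 2 C/EBP matches.

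Beyond the 3′ end of Slc29a1 the window runs toward Hsp90ab1, which encodes a cytosolic HSP90 chaperone, and 4 regions there had a peak in all 6 lists. They had fold enrichments of 4.52 to 7.81, with mean rank differences between -19.9 and -10.0 percentile points. The largest difference was at the start of Gm17080 (chr17:45584931-45585639), with ranks of 16.4, 36.3 and 42.3 in control and 10.6, 14.7 and 10.1 with MMF. The MMF samples were all below there, and the difference was not called (limma adjusted p = 0.165). The outermost, 5.8 kb from the start of Hsp90ab1 (chr17:45578936-45579174), had ranks of 10.0, 22.4 and 21.4 in control and 1.74, 6.17 and 2.66 with MMF (limma adjusted p = 0.0909). Its summit held 22, 25 and 22 reads in control and 21, 21 and 17 with MMF. With lists limited to equal length this region was called lower (score difference -1.15 ± 0.25, SE, limma adjusted p = 0.0419). Slc29a2 had 13.5, 15.5 and 17.3 at its start in control and 14.3, 15.9 and 14.0 with MMF in fold enrichment, which overlapped (limma adjusted p = 0.419). A region 6.8 kb upstream of Slc29a2 had the largest rank difference among the regions of that window away from its start, -17.4 percentile points, and its samples overlapped (limma adjusted p = 0.321).

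**Figure D4:**
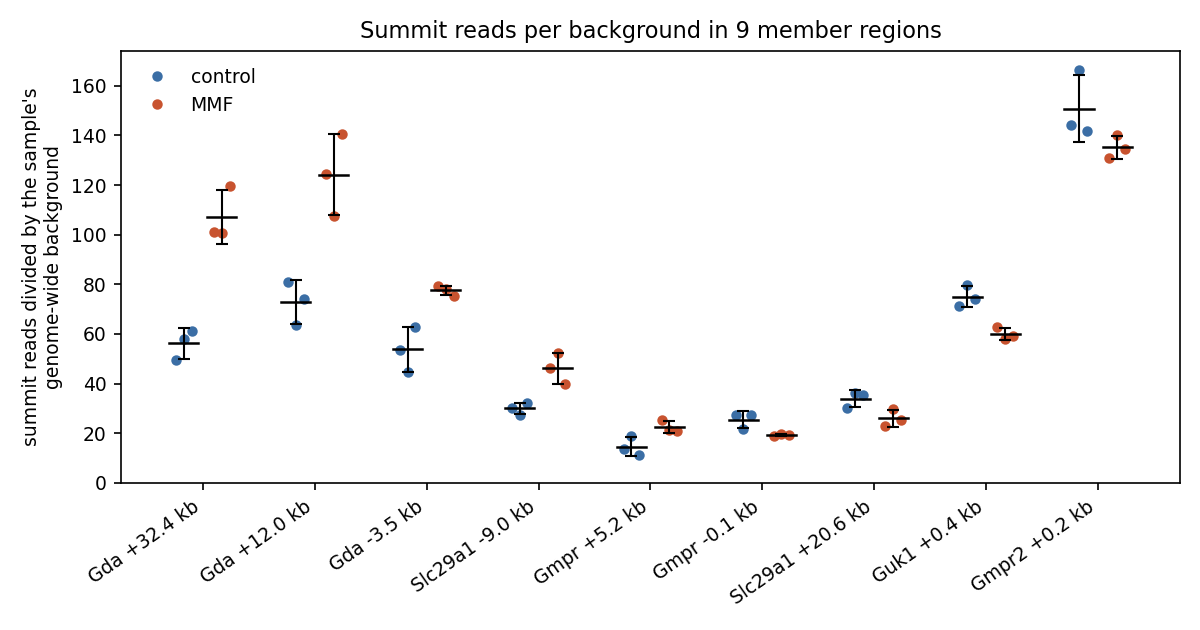
Summit reads in units of each sample's genome-wide background (vertical axis, ratio, starting at 0) in the 9 of the 31 regions whose groups do not overlap on this scale, named by gene and position from its 5′ end, for 3 control (blue) and 3 MMF (orange) samples. Points are samples, black lines means and error bars SDs, and 5 regions are higher with MMF, where 29.1% of all regions lie wholly above, and 4 are lower, the starts of Gmpr, Guk1 and Gmpr2 and the outermost Slc29a1 region, where 7.68% lie wholly below.

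Regions were called gained when all 3 MMF lists and no control list had a peak, and lost in the opposite case. Of the 66 regions 4 were gained (6.06%, beside 6.0% of all regions) and 0 were lost (0.182% of all regions). The share gained was that of the genome. They lay in the windows of Gda, Impdh1, Gmpr and Slc29a1, and none was within 1 kb of an annotated start. The Gda region, 7.3 kb past the 3′ end of the gene (chr19:21383869-21384172), was the strongest, with fold enrichments of 8.39, 7.81 and 6.32 on 24, 19 and 15 reads. It was the only one of the 4 still gained with lists limited to equal length, where 2.37% of all regions were gained and 1.38% lost. Its sequence holds 1 C/EBP match.

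The other gained regions were weaker. Past the 3′ end of Impdh1 (chr6:29195716-29196209) fold enrichments were 5.93, 4.18 and 4.55 on 14, 7 and 9 reads. In an intron of Slc29a1 (chr17:45597851-45598174) they were 6.59, 4.84 and 4.82 on 23, 14 and 12 reads. In the Gmpr window an intron of Atxn1 (chr13:45560660-45560844) had 5.76, 4.10 and 4.77 on 10, 6 and 7 reads. A control list without a peak does not mean closed chromatin, since a peak needed at least 4 reads in each control list and more where the local background was high. Without MMF sample 3 there were 7 gained regions, and without MMF sample 1 or MMF sample 2 there were 4. The share over all regions was not counted for these, and the cause of the difference was not tested. Of the remaining regions 16 had a peak in 1 list, 5 of them in a control and 11 in an MMF list, and 15 in 2 to 5 lists. The MMF lists were longer, and the same split over all regions was not counted.

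The rest of purine metabolism was given by 24 further genes, from phosphoribosyl pyrophosphate synthetase (Prps1) to xanthine dehydrogenase (Xdh). A promoter region in all 6 lists was found for 23 of them, of which 20 had a lower and 3 a higher mean rank with MMF, with a median of -7.30 percentile points. On log2 fold enrichment 13 of the 23 were higher and 10 lower, with a median of 0.04. Limma on the ranks called 0 higher and 0 lower, and at an unadjusted p under 0.05 it gave 5 lower (21.7%) and 0 higher, where 16.8% of all 11691 protein-coding genes were lower and 1.38% higher. Those 5 were Nme1, Atic, Ada, Nt5c2 and Adss, chosen for naming after their values were seen. For Nme1, a nucleoside diphosphate kinase that makes GTP from GDP, fold enrichment was 21.3, 19.8 and 18.0 in control and 17.6, 18.8 and 15.6 with MMF (limma adjusted p = 0.164). Atic, the last enzyme before IMP, had 18.0, 19.8 and 17.3 in control and 17.4, 16.8 and 15.1 with MMF (limma adjusted p = 0.169). MMF samples were wholly below control samples by rank in 6 of the 23 and wholly above in 0, beside 29.5% and 2.44% of all 11691 protein-coding genes. Ppat and Paics, which encode enzymes of the steps toward IMP, share 1 region and counted as 2 genes.

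Sequences were compared with promoter regions in all 6 lists and, away from starts, with regions in all 6 lists or gained. GC content of the 200 bases at the summit had a median of 67.5% over the 12 start regions, beside 64.5% for such promoter regions. It ran from 41.0% at the inner start of Gda to 73.0% in the starts and from 41.5% to 60% in the 16 regions away from annotated starts, so the ranges overlapped. A GC box was found in 9 of the 12 start regions (75.0%), beside 59.5% of such promoter regions. With 400 bases read it was again in 9 of the 12, beside 70.7% of such promoter regions. The E-box was in 2 of 12, the Impdh2 start and the inner start of Impdh1, beside 8.64% of promoter regions, and CCAAT in 4 of 12 (32.4% of promoter regions). No ETS match was found in the 12 (16.5% of promoter regions). Of 16 regions away from annotated starts, counting those in all 6 lists and those gained, 4 held a C/EBP match (19.1% of such regions), 3 a CTCF match (7.23%) and 2 a PU.1 match (10.03%). With 400 bases read around each summit 7 of the 16 held a C/EBP match (26.6% of such regions). The 4 with a C/EBP match were the Gda intron, the region 3.5 kb upstream of Gda, the region upstream of Slc29a1 and the Gda region with a peak only in MMF lists.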

How the data were processed

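ATAC-seq peak lists of 3 control LSC samples and 3 given MMF were used. Per the submitters' processing notes the authors used FastQC, Trim Galore, Bowtie2 (mm10) and MACS2. The deposited peak lists, 1 per sample, give a fold enrichment (ratio) at the summit and its p-value and q-value on a −log10 scale. The deposited score was not used. Chromosomes 1 to 19, X and Y were kept, coordinates were matched to GRCm38, and peaks overlapping by at least 1 bp were merged. Genes and starts came from the GENCODE M21 basic annotation. Summit reads and background were solved from fold enrichment and p, and whole reads were found for 100% of peaks at a relative misfit of 0.001. Normal scores of ranks among the regions found in all 6 lists were fitted with limma 3.58.1 (lmFit and eBayes, no block) in R 4.3.3, adjusted by Benjamini-Hochberg. Single values used exact permutation tests in Python 3.11.15, and sequences were read with pysam 0.24.0. The solving of reads and the limma fit were tested on simulated data. Named were all 10 genes, their start regions, gained, lost or called regions, and in each window the largest rank difference away from the start. The members and lists were chosen with earlier results of these data known. The reads were not used here.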

Additional observations from a re-analysis of the deposited data

How the results depend on the processing

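Depth limits what these lists show: a weak region rests on about 4 to 15 reads at its summit, a missing peak is not closed chromatin, and ranks describe called peaks only. Among 3 samples against 3 no permutation test can reach p = 0.05.

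Regions called by limma, 0 higher and 0 lower among the members, became 3 higher on log2 summit reads per background, 1 lower at equal list length and 1 higher when a peak in 3 of 6 lists sufficed. The last is the gained Gda region, admitted by its MMF lists alone, so its call restates the gain. Of the scalings added after seeing the data, centring on sample medians gave 1 higher (inner Gda start) and 6 lower (starts of Impdh2, Ndufaf3, Guk1, Gmpr and Gmpr2 and the outermost Slc29a1 region), and centring on median ratios 1 higher and 1 lower. Regions without overlap, 2 above and 7 below, were 4 and 0 on log2 fold enrichment, 4 and 1 on ranks in the whole list, 5 and 4 on log2 summit reads, 2 and 15 with sample medians, 4 and 7 with median ratios, 4 and 8 with 3 of 6 lists, and 2 to 5 above and 10 to 13 below on leaving out each sample, where fewer samples have to be separated. Shares of all regions without overlap were counted only by rank, fold enrichment and summit reads per background, as given above. With sample medians 64.0% of all regions had a lower mean with MMF, and with median ratios 51.1%. The limma calls that follow are a different count. Over all regions the calls were 594 higher and 175 lower by rank, 7643 and 399 on log2 summit reads, and 2841 and 5715 with sample medians. They were 4116 and 1157 with median ratios, 4642 and 97 on log2 fold enrichment, and 2401 and 76 on ranks in the whole list. Each of these pairs was out of the same 41182 regions, 31 of them members. With 3 of 6 lists the calls were 1911 and 983 of 72534 regions. At equal list length they were 941 and 373 of 35979, and 231 and 50 of 23954 when a peak had to cover 0.5 of its region. The fit with the replicate number as a block called 0 member regions and 0 of all regions, and leaving out each sample gave 0 and 0. Control and MMF samples share only a number: deviations of same-numbered samples correlated at 0.003 to 0.007 over regions, though each sample correlated best with its own number. Requiring the peak to lie mostly within its region changes nothing by construction, since peaks lie inside the merged regions.

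Gained regions, 4 in all, were 1 of 52 at equal list length, where 2.37% of all regions were gained and 1.38% lost. They were 1 in gene bodies alone, and 5 with 1 lost with 25 kb flanks. For these windows the shares of all regions stay at 6.0% gained and 0.182% lost. They were 2 with 1 lost when a peak had to cover 0.5 of its region, and 4 to 7 on leaving out each sample (7 without MMF replicate 3). Shares of all regions were not counted for the last 2 settings. The difference in peaks was -0.33 at equal list length, 5.0 in gene bodies, 18.3 with 25 kb flanks and 10.0 to 15.0 on leaving out each sample. The difference in percent of the list was -0.0089 with 25 kb flanks and -0.0062 to -0.0022 on leaving out each sample.

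Best starts higher with MMF, 3 of 10, were 5 on ranks in the whole list, 6 (with 4 lower) on log2 fold enrichment, 1 with either centring and 2 to 3 on leaving out each sample. Differences that changed sign, none of them called except where stated, were Impdh1 (0.46 percentile points) and Hprt (1.14) on ranks in the whole list, Impdh1 (0.077), Hprt (0.072) and Slc29a1 (0.021) on log2 fold enrichment, Gmpr2 (-0.15) on log2 summit reads, Gmps (-0.32) and Gmpr2 (-0.51, adjusted p = 0.0465, called) with sample medians, and Gmps (-0.14) and Gmpr2 (-0.33) with median ratios. Gmpr2, at 0.0049 percentile points, also ran from -0.24 to 0.21 on leaving out each sample, with -0.10 without MMF replicate 2 and -0.044 without MMF replicate 3. The cause was not tested for any of these.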
